A study of Mus musculus with 16 samples.

Results

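The cytosolic ribosome is built from ribosomal RNA and a set of ribosomal proteins, most of them present once in each particle. The rows of the deposited table that carry a ribosomal protein name were described here across 4 antibody groups of the mouse melanoma line B16-F10, which makes pigment. Names made of Rpl or Rps and a number were taken, with the paralogue endings of the naming rule, together with Rplp0, Rplp1, Rplp2 and Rpsa. Pseudogenes with a -ps ending and the Rps6k kinases were left out. The rule found 88 genes among 49164 identifiers with values, 34 of the small subunit and 54 of the large subunit. Of these, 77 are canonical ribosomal proteins and 11 are copies or paralogues. Ribosomal RNA itself was not described, since the RNA was polyadenylated.

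Ribosomal protein genes are transcribed at high and coordinated rates, and their messages begin with a terminal oligopyrimidine tract (TOP), a run of C and T at the first base. Through this tract the kinase mTOR and the RNA-binding protein LARP1 control how much of the message is translated and how stable it is. Melanoma cells, like other fast-growing cells, devote a large part of their transcription to these genes.

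The cells were wild type per the labels, and each sample had 24 h with 1 antibody. The antibodies Mel321-31 (n = 4), Mel322-34 (n = 4) and Mel321-35 (n = 2) were set against the isotype control MGO.53 (n = 4), all in batch 1 per the labels. A further Mel321-35 library is the sole one of batch 2 and is given apart, and Mel321-35 replicate 2 was not analysed here. Strand-specific libraries were made from polyadenylated RNA, and the series asked which genes go up or down with each antibody. The labels call the samples biological replicates of 1 cell line and do not say whether they were separate cultures. The p-values therefore rest on the spread of these samples, which may be technical.

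The libraries held 19446531 to 37957845 counts each. All 8 melanocyte lineage markers were present in each library, from 558 CPM for Sox10 to 12987 CPM for Tyrp1 (CPM, counts scaled to a common library size). Of these, Sox10, a transcription factor of the lineage, was called lower with Mel321-31 and Mel322-34 (log2 fold changes -0.12 and -0.10), and the pigment matrix protein Pmel with Mel322-34 (-0.11), and their part in the results below was not tested. Of 12 markers of other cells, Epcam and Cdh5 were at 0 in all 15 libraries. Cd68, Col1a1 and Cdh1 were present in every library. They ran from 13.4 to 18.7, from 2.37 to 3.92 and from 1.03 to 2.37 CPM. Each of the others was at 0 in at least 1 library. The summed level of the 12 ran from 22.1 to 24.7 CPM in Mel321-31, from 24.1 to 32.02 CPM in Mel322-34, from 27.5 to 29.0 CPM in the batch 1 libraries of Mel321-35 and from 30.3 to 37.8 CPM in MGO.53. Its part in the results below was not tested. The mitochondrial share of the counts had a mean ± SD of 1.96 ± 0.0868% in the 4 Mel321-31 libraries, of 2.05 ± 0.107% in the 4 Mel322-34 libraries and of 2.21 ± 0.215% in the 4 MGO.53 libraries, and its part was not tested either. Of the 12 markers, the epithelial keratin Krt8 was called lower with Mel321-31 and Mel322-34 (log2 fold changes -1.50 and -0.84) and Krt18 with Mel321-31 (-1.43), and the batch 2 library had 0 counts of both.

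The start of a few genes shows a feature found in many of the group. RefSeq's promoter table on GRCm38.p6, with 250 bases before and 50 after each annotated start, held 65 of the 88 members. The windows below run 15 bases before and 15 after the start and show 5 of the genes with the smallest p values in the comparisons with Mel321-31 and Mel322-34, beside a paralogue pair. Capitals mark a C followed by at least 4 pyrimidines on the gene's strand within 10 bases of the start. Marking begins at the matching C nearest the start, and other matches in a window are left in small letters. Where a gene had several annotated starts, the one with the tract nearest to it is shown. In the shares below, a gene counts if any of its starts matched. Rpl28, at chr7:4792950-4792979 on the plus strand, and Rps27, at chr3:90213634-90213663 on the minus strand, had the tract exactly at the annotated start.
Rpl28: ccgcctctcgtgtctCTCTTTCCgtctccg
Rps27: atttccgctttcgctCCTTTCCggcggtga
Rps7, at chr12:28635939-28635968 on the minus strand, had it 7 bases downstream, and Rpl19, at chr11:98026695-98026724 on the plus strand, had it 5 bases upstream.
Rps7: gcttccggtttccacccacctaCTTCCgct
Rpl19: tgaccaaacgCCCTCactgcgcatgtgcgc
Rpl37, at chr15:5116598-5116627 on the plus strand, had no such run within 10 bases of its annotated start.
Rpl37: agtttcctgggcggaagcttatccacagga
Rpl22, at chr4:152324421-152324450, and its paralogue Rpl22l1, at chr3:28805493-28805522, both on the plus strand, had it 7 and 3 bases downstream.
Rpl22: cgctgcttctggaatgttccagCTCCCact
Rpl22l1: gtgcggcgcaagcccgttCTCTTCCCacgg

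The tract stood at an annotated start in 14 of 65 members, or 21.5%, against 3.01% of the 27025 genes in the same table. Within 10 bases it was found in 40 members, or 61.5%, against 34.4% of all genes and 37.4% of the tested genes. Rplp0, like Rpl37, had no such run there. Annotated starts can differ from the starts used in these cells, so a missing match says only that the letters are not in the window. Of the promoter motifs searched on both strands in the 300 bases, the ETS-type CCGGAAG was present in 26 of 65 members, against 9.93% of all genes in the table and 2096 of the 10494 tested genes in it. The YY1-type AAGATGG was in 15.4% of members, against 7.28% of all genes and 8.37% of the tested ones. The E-box CACGTG was in 9.23% of members, against 8.09% and 11.7%. CCGGAAG and AAGATGG can share the letters AAG where they meet. The 150 bases upstream of Rps7, at chr12:28635954-28636103 on the minus strand, and of Rpl37, at chr15:5116463-5116612 on the plus strand, are shown because both genes are called in the comparisons below and hold the ETS-type motif, in capitals, on opposite strands.
Rps7: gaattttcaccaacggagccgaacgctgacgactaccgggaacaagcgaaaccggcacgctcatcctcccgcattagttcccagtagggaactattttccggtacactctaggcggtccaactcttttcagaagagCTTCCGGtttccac
Rpl37: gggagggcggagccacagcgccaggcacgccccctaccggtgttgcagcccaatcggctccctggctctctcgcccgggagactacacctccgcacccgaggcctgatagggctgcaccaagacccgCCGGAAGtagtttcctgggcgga

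Within MGO.53 the canonical members were expressed at high levels that were steady between libraries. Levels per kb of annotated transcript, with n = 4 and SD, were highest for Rplp1, a protein of the acidic stalk, at 3571 ± 161 CPM per kb. Next came the large subunit proteins Rpl32 at 2392 ± 37.5 and Rpl8 at 1799.8 ± 18.99 CPM per kb, and the small subunit proteins Rps15 at 1565 ± 81.4 and Rps12 at 1446 ± 31.9 CPM per kb. The SDs of Rps15 and Rps12 do not reach each other's mean, but the order of these 5 was not tested. Over the 75 canonical members with at least 10000 counts in all libraries together, the level per kb ran from 82.6 to 3571 with a median of 660 CPM per kb. The median coefficient of variation among the MGO.53 libraries was 3.14%. The annotated transcript of a few members is far longer than the rest (up to 5179 bases, against a median of 851 bases), which lowers their level per kb.

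**Figure D1:**
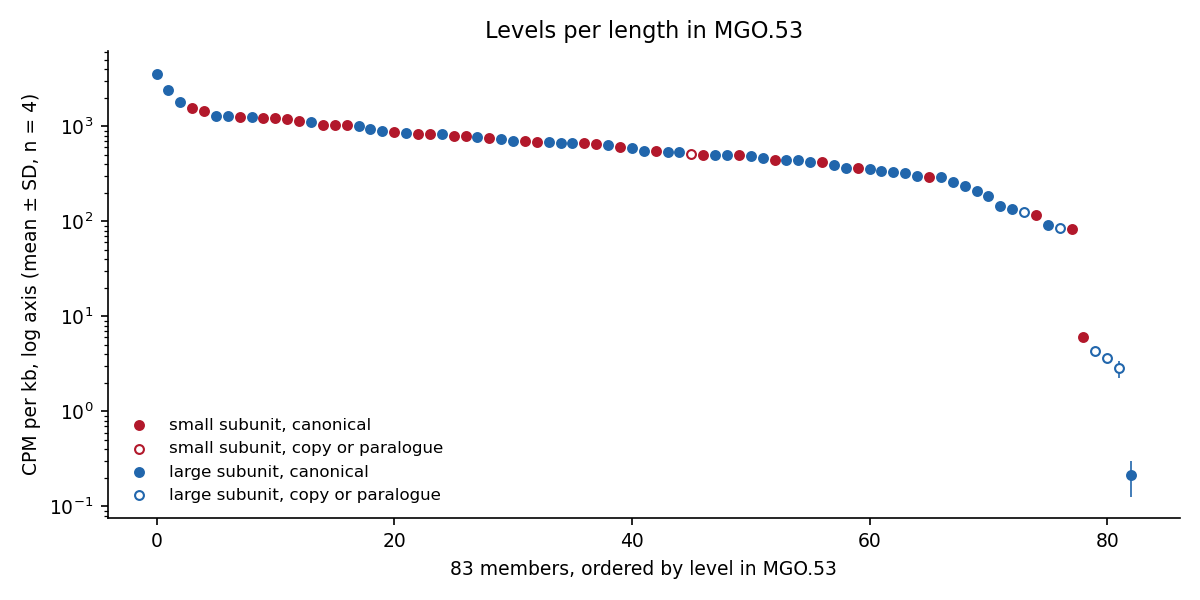
Level of each tested member per kb of annotated transcript in MGO.53 (log axis), ordered from high to low, with points for means and bars for SD over 4 libraries. Canonical members (filled) hold the top of the order, with Rplp1 at 3571 CPM per kb, and the isolated low points are Rps10, 3 copies and Rpl24 at 0.214 CPM per kb.

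Both canonical exceptions at the low end share exons with another gene. Rpl24, a large subunit protein, had 128 counts over all 15 libraries and 0.214 ± 0.0870 CPM per kb in MGO.53, and Rps10, a small subunit protein, had 2300 counts and 6.02 ± 0.417 CPM per kb. In GENCODE M21, 47.0% of the exon bases of Rpl24 are also exons of Gm28037 on the same strand, and 20.6% of those of Rps10 are exons of the readthrough gene RPS10-NUDT3. Both of these partner genes had 0 counts in the table. Among the 88 members only Rpl13a (35.4%) and Rpl36al (24.5%) also passed 20% of shared exon bases, and the highest share among the other 84 was 14.5%. The sources used here do not give how reads falling in 2 genes were counted. The part of the overlap in these low levels was not tested, and the values of these 4 genes are uncertain.

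The copies and paralogues were mostly low, and those that were not low are paralogues with their own messages. Rps27l, a paralogue of Rps27 that p53 induces, stood at 507 ± 13.1 CPM per kb in MGO.53, against 1036 ± 43.4 for Rps27. Rpl22l1, which can replace Rpl22 in the ribosome, stood at 125 ± 11.7 CPM per kb, against 135 ± 5.87 for Rpl22, a pair whose levels differ by less than the SD of Rpl22l1. Rpl7l1 had 86.0 ± 1.297 CPM per kb, against 828 ± 11.2 for Rpl7. Rpl36al, an intronless copy of Rpl36a, had 4.32 ± 0.406 CPM per kb, against 258 ± 13.8 for its parent gene. The processed pseudogenes Rpl32l and Rpl6l had 3.66 ± 0.150 and 2.83 ± 0.571 CPM per kb. Reads of such copies cannot be divided from those of the parent genes by counts alone. The heart and muscle paralogue Rpl3l and the testis paralogues Rpl10l and Rpl39l had 5, 4 and 5 counts over all 15 libraries. With Rps12l1 at 12 counts and Rps4l at 22, these 5 did not pass the filter on low counts. The other 83 members were tested, 77 of them canonical.

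The members together took 4.94, 4.32, 4.33 and 4.29% of all counts in the Mel321-31 libraries (replicates 1 to 4), and 4.45, 4.24, 4.10 and 4.36% in the Mel322-34 libraries. They took 4.48 and 4.52% in the batch 1 libraries of Mel321-35 and 4.66, 4.70, 4.66 and 4.76% in the MGO.53 libraries. Every batch 1 library of Mel322-34 and Mel321-35 was below every MGO.53 library, and so was every Mel321-31 library but replicate 1, which was above them all. Means ± SD of the share over 4 libraries were 4.47 ± 0.315% for Mel321-31, 4.29 ± 0.150% for Mel322-34 and 4.69 ± 0.0488% for MGO.53. The batch 2 library of Mel321-35, at 4.93%, was above all MGO.53 libraries. The subunits kept their proportion, with a ratio of small to large subunit counts between 0.688 and 0.711 in the 15 libraries. In bulk RNA, fewer cells of a kind and less of a message per cell cannot be told apart.

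**Figure D2:**
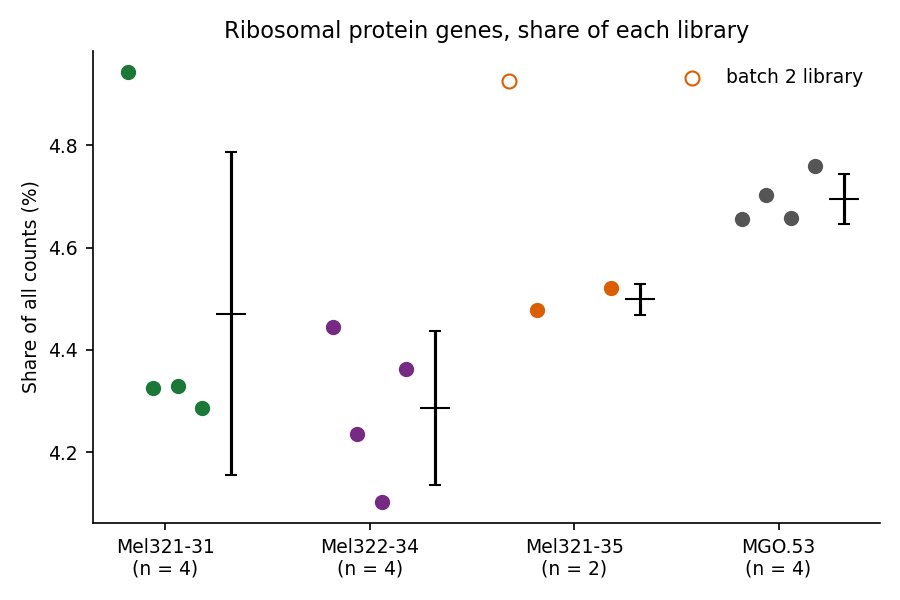
Share of all counts (%) taken by the 88 ribosomal protein genes, 1 point per library, with means and SD bars for the batch 1 libraries and an open point for the batch 2 library. The axis does not start at 0. Mel322-34 libraries lie between 4.10 and 4.45%, below the MGO.53 libraries at 4.66 to 4.76%, and Mel321-31 replicate 1 lies apart at 4.94%.

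With Mel322-34 the ribosomal protein messages were lower across most of the group. Of the 83 tested members 43 fell and 0 rose against MGO.53, where 2.84% of all 14633 tested genes were called lower and 4.03% higher (edgeR's quasi-likelihood test, Benjamini-Hochberg adjusted p under 0.05 over all genes). The median log2 fold change of the members was -0.15, against -0.0011 over all genes, and 80 of 83 were negative. For 47 members all 4 Mel322-34 libraries lay below all 4 MGO.53 libraries, against 5.92% of all genes. In the small subunit 21 of 32 fell, with a median of -0.17, and in the large subunit 22 of 51, with a median of -0.14, a difference that was not tested. All 43 are canonical, and 0 of the 6 tested copies and paralogues passed. All 6 were negative, however, with a median of -0.11. Among them Rpl32l, Rpl36al and Rpl6l had only 516, 935 and 1086 counts over all 15 libraries.

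The call rests on small shifts in abundant messages. Rps27 (ENSMUSG00000090733), a zinc-finger protein of the small subunit, had 321, 271, 288 and 312 CPM with Mel322-34 and 339, 357, 359 and 375 CPM with MGO.53. The 2 groups did not overlap, though replicates 1 and 4 of Mel322-34 came close to the lowest MGO.53 library. The fold change was -0.26 ± 0.049 on the log2 scale (SE, adjusted p = 0.00235, edgeR). Rps7 (ENSMUSG00000061477), which also binds the p53 ligase MDM2, had 522, 479, 473 and 501 CPM with Mel322-34, against 553, 573, 568 and 597 CPM with MGO.53. Again no library of one group reached the other, at a log2 fold change of -0.21 ± 0.040 (adjusted p = 0.00246, edgeR).

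In the large subunit Rpl37 (ENSMUSG00000041841), a zinc-finger protein, had 331, 306, 304 and 311 CPM with Mel322-34, against 372, 379, 353 and 381 CPM with MGO.53. Every Mel322-34 library was below every MGO.53 library, and the log2 fold change was -0.25 ± 0.044 (adjusted p = 0.00148, edgeR). Rpl19 (ENSMUSG00000017404), which takes part in a bridge between the subunits, had 843, 788, 772 and 796 CPM with Mel322-34 and 939, 939, 910.0 and 938 CPM with MGO.53. It showed the same separation, at -0.22 ± 0.040 on the log2 scale (adjusted p = 0.00188, edgeR). Rpl28 (ENSMUSG00000030432), a large subunit protein without a bacterial counterpart, had 519, 537, 493 and 515 CPM with Mel322-34, against 587, 643, 559 and 612 CPM with MGO.53. Its MGO.53 libraries were the more scattered, yet all 4 lay above the Mel322-34 libraries (log2 fold change -0.22 ± 0.041, adjusted p = 0.00218, edgeR).

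**Figure D3:**
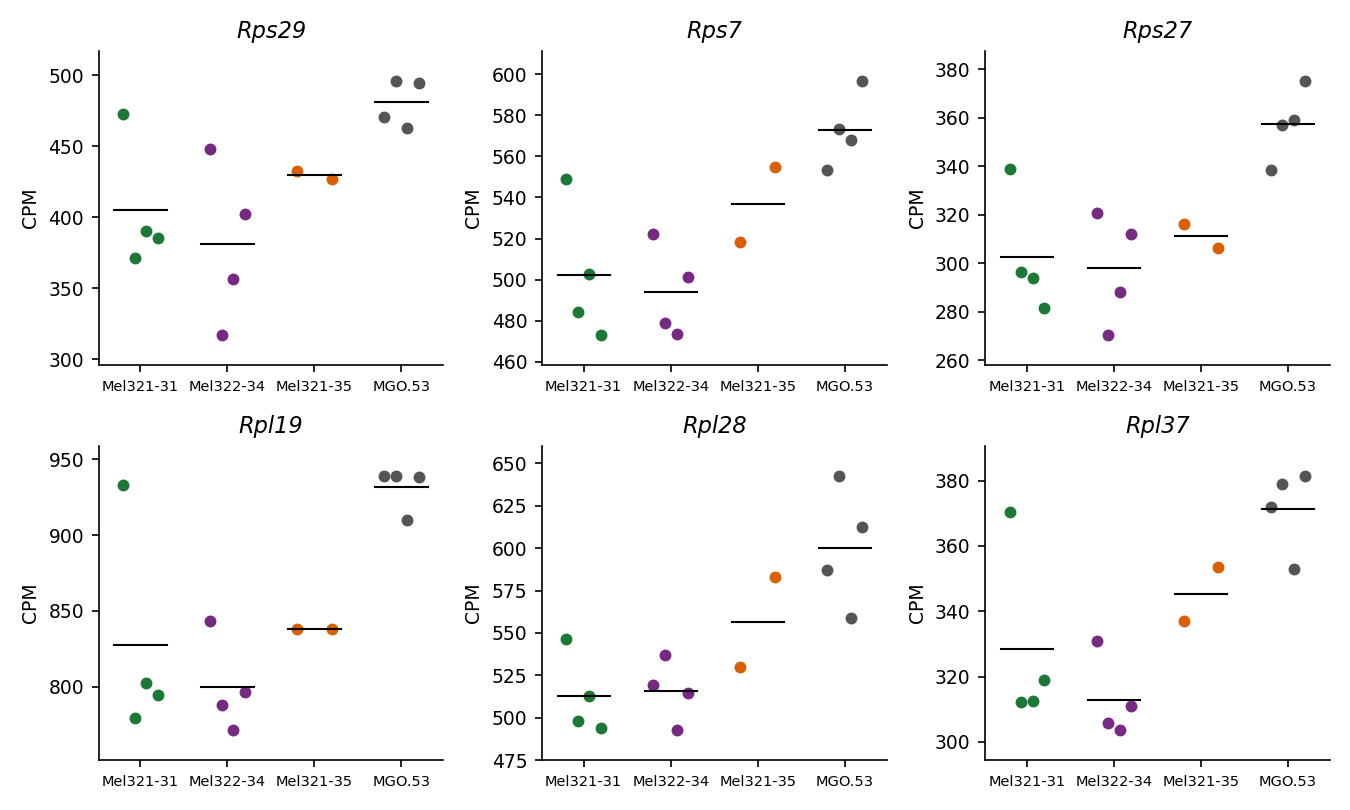
Level in CPM of 3 small subunit genes (top) and 3 large subunit genes (bottom) in each batch 1 library, with a line at the group mean. The axes do not start at 0. For all 6 genes the Mel322-34 libraries lie below the MGO.53 libraries, and Mel321-31 replicate 1 is the highest of its group.

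The remaining calls with Mel322-34 cover proteins of varied roles. Of the stalk that recruits translation factors, Rplp0 had 1653, 1556, 1549.8 and 1545 CPM with Mel322-34, against 1732, 1810.1, 1722 and 1683 CPM with MGO.53, and Rplp1 had 1647, 1542, 1444 and 1579.6 CPM, against 1741, 1902, 1749 and 1736 CPM. Both fell with no overlap, Rplp0 by 0.14 and Rplp1 by 0.20 on the log2 scale (adjusted p = 0.0168 and 0.00946, edgeR). The third stalk protein Rplp2 was at -0.11 ± 0.048 and did not pass (adjusted p = 0.147). Rps6, the substrate of S6 kinase, fell by 0.21 (adjusted p = 0.00668), and Rpsa, also known as the laminin receptor, fell by 0.15 (adjusted p = 0.0408, edgeR). Rps4x, an X-linked small subunit protein, fell by 0.10 (adjusted p = 0.0412), with 1072, 1052, 1091 and 1097 CPM in Mel322-34 and 1166, 1159.9, 1163 and 1133 CPM in MGO.53. Neither group was widely spread for Rps4x, and they did not overlap.

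The 2 largest falls among the 43 were those of Rps29 and Rpl41. Rps29, a small zinc-binding protein of the small subunit, had 448, 317, 357 and 402 CPM with Mel322-34, against 470.4, 496, 463 and 494 CPM with MGO.53. The Mel322-34 libraries were widely scattered, yet all lay below the control range (log2 fold change -0.34 ± 0.069, adjusted p = 0.00427, edgeR). Rpl41, a peptide at the bridge between the subunits, had 519.6, 476, 439.6 and 504 CPM with Mel322-34, against 572, 644, 549.9 and 604 CPM with MGO.53. Here too the groups did not overlap, at -0.29 ± 0.065 on the log2 scale (adjusted p = 0.00823, edgeR). With Mel321-31 both were called as well, at -0.25 ± 0.069 and -0.24 ± 0.065 (adjusted p = 0.039 and 0.0327, edgeR), with replicate 1 of Mel321-31 inside the control range for both. The smallest fall among the 43 calls was that of Rps4x. Rps15, one of the most abundant per kb, had 709, 659, 609 and 681 CPM with Mel322-34, against 754, 836, 748 and 792 CPM with MGO.53. All its Mel322-34 libraries were below the control libraries (log2 fold change -0.24 ± 0.049, adjusted p = 0.00453, edgeR). Rpl32 fell by 0.18 (adjusted p = 0.0186, edgeR), while Rpl8 at -0.11 ± 0.039 and Rps12 at -0.16 ± 0.051 missed the threshold (adjusted p = 0.0785 and 0.0526) with no overlap between the groups.

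Other abundant members did not pass the test, some with values near 0 and some with values as low as those of called members. Rpl5 and Rpl11, which join an rRNA of the large subunit in a complex that also binds MDM2, had log2 fold changes of -0.02 ± 0.038 and -0.12 ± 0.047 with Mel322-34 (adjusted p = 0.815 and 0.116, edgeR). Rps3, which lines the entry channel of the message, had 1265, 1349, 1143 and 1244 CPM with Mel322-34, against 1289, 1216, 1279 and 1271 CPM with MGO.53. Its libraries overlapped fully, at -0.02 ± 0.046 on the log2 scale. Rps27a, made as a fusion with ubiquitin, was at -0.11 ± 0.050 (adjusted p = 0.187, edgeR). Of the 3 members with a positive value, Rpl24 had a log2 fold change of 1.12 ± 0.56 on 2 to 16 counts a library, and Rpl39 one of 0.08 ± 0.059 (adjusted p = 0.246 and 0.478, edgeR). The other was Rps14 at 0.02 ± 0.067. The paralogues Rpl22l1 and Rps27l were at -0.0016 ± 0.059 and -0.03 ± 0.042, and Rpl7l1 at -0.04 ± 0.033. Of the genes with tissue-restricted paralogues, Rpl3, near the peptidyl transferase centre, was at -0.04 ± 0.034 and Rpl10, which is needed for the subunits to join, at -0.15 ± 0.049 (adjusted p = 0.549 and 0.0616, edgeR).

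The count of 43 became 10 once the trend on transcript length was taken out of each library (1.56% of all genes called lower). It became 2 when libraries were scaled to their summed ribosomal protein count (0.246%). That scaling sets the members' sum equal by construction, so it cannot test their shared fall. With all 15 libraries and no batch term the count became 27 (1.95%), and without Mel322-34 replicate 3 it became 16 (0.979%). Leaving out control replicate 2 or control replicate 4 gave 21 each time (1.09% and 1.43% of all genes), and leaving out any other single library gave 33 to 57 (1.96% to 4.33%).

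**Figure D4:**
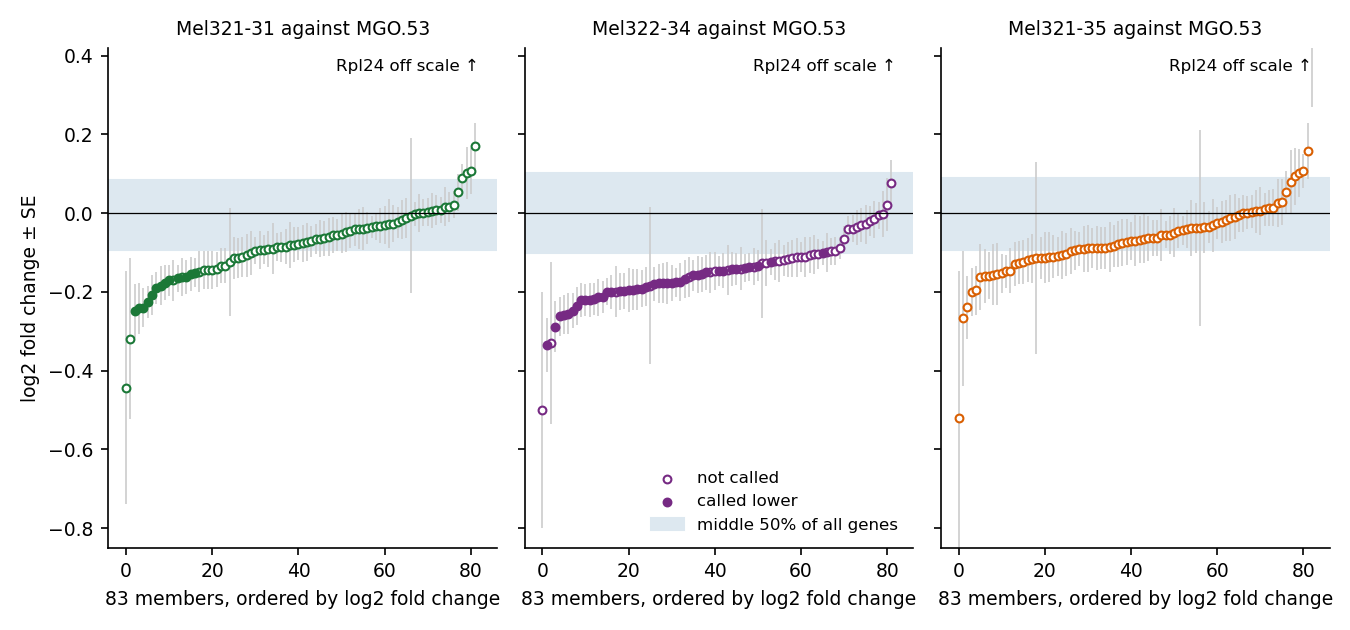
log2 fold change ± SE of the 83 tested members against MGO.53 for each antibody, ordered by value, with called members filled and a band for the middle 50% of all tested genes. Members called lower number 13 with Mel321-31, 43 with Mel322-34 and 0 with Mel321-35. Rpl24, at 1.07, 1.12 and 0.95, lies above the axis.

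With Mel321-31 a smaller number of members passed. Of 83 members 13 fell and 0 rose, where 2.13% of all genes were called lower and 1.41% higher (edgeR, adjusted p under 0.05). The median over the members was -0.08, against -0.0014 over all genes, and 69 of 83 were negative. For 9 members all 4 Mel321-31 libraries lay below all MGO.53 libraries, against 5.38% of all genes. The calls were 5 of 32 in the small subunit and 8 of 51 in the large subunit. All 13 were also among the 43 called with Mel322-34, but the comparisons share the MGO.53 libraries. They include Rps7, Rps16, Rps27, Rps29, Rpl10a, Rpl13, Rpl17, Rpl19, Rpl27a, Rpl28, Rpl37 and Rpl41.

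Rpl28 had the smallest p with Mel321-31, with 546, 498, 513 and 494 CPM, against 587, 643, 559 and 612 CPM with MGO.53. The groups did not overlap, and the log2 fold change was -0.23 ± 0.041 (adjusted p = 0.0024, edgeR). Rps27 had 339, 297, 294 and 282 CPM with Mel321-31, against 339, 357, 359 and 375 CPM with MGO.53. Here replicate 1 reached the lowest MGO.53 library and the other 3 stayed clear of it (log2 fold change -0.24 ± 0.049, adjusted p = 0.00639, edgeR). 

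Rps7 had 549, 484, 503 and 473 CPM with Mel321-31 and 553, 573, 568 and 597 CPM with MGO.53. Replicate 1 lay just under the lowest MGO.53 library (log2 fold change -0.19 ± 0.040, adjusted p = 0.00779, edgeR). Rpl19 had 933, 779.6, 803 and 795 CPM with Mel321-31, against 939, 939, 910.0 and 938 CPM with MGO.53. In this gene replicate 1 sat inside the MGO.53 range, while the other 3 libraries were below it (log2 fold change -0.17 ± 0.040, adjusted p = 0.0158, edgeR). Rpl17, near the exit of the peptide tunnel, had 336, 320.0, 297 and 302 CPM with Mel321-31 and 338, 383, 353 and 377 CPM with MGO.53. All 4 Mel321-31 libraries lay below MGO.53, by a narrow margin for replicate 1 (log2 fold change -0.21 ± 0.050, adjusted p = 0.0188, edgeR).

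Mel321-31 replicate 1 stood apart across the group. Against the MGO.53 mean, the median log2 deviation of the members was 0.08 in Mel321-31 replicate 1 and -0.12, -0.13 and -0.15 in replicates 2, 3 and 4. It was -0.09, -0.16, -0.22 and -0.11 in the Mel322-34 libraries, -0.08 and -0.05 in the batch 1 libraries of Mel321-35 and between -0.01 and 0.03 in MGO.53. So 1 library of Mel321-31 was above the control mean and the other 3 lay in the range of Mel322-34. Without replicate 1 the members called lower with Mel321-31 numbered 45, with a median of -0.13, and 3.93% of all genes were called lower. Without replicate 2, 3 or 4 of Mel321-31 they numbered 3, 4 and 4 (0.685%, 1.18% and 1.17% of all genes), and without control replicate 2 or 4 they numbered 4 and 3 (0.803% and 0.796%). The count was also 8 with the length trend removed (2.15% of all genes) and 4 with all 15 libraries and no batch term (0.26%). It was 0 when scaled to the summed ribosomal protein count (0.991%), which sets the members' sum equal by construction.

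Members outside the calls with Mel321-31 included all 3 stalk proteins, with log2 fold changes of -0.09 ± 0.035 for Rplp0, -0.13 ± 0.045 for Rplp1 and -0.03 ± 0.048 for Rplp2 (adjusted p = 0.179, 0.0955 and 0.838, edgeR). Rps6 was at -0.09 ± 0.046, Rpsa at -0.03 ± 0.044, Rpl5 at 0.02 ± 0.038 and Rpl11 at -0.06 ± 0.047. The highest values, apart from Rpl24, were those of the paralogue Rpl22l1. It had 83.8, 77.5, 73.3 and 75.8 CPM with Mel321-31, against 66.3, 60.8, 74.1 and 74.0 CPM with MGO.53. Only replicate 3 of Mel321-31 lay within the MGO.53 range, and the log2 fold change of 0.17 ± 0.058 did not pass (adjusted p = 0.101, edgeR). Its partner Rpl22 was at 0.01 ± 0.044.

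With Mel321-35, read from 2 libraries, 0 members rose and 0 fell, where 0.0342% of all genes were called higher and 0.00683% lower (edgeR). At an unadjusted p under 0.05 there were 18 of 83 members, against 1542 of all 14633 genes. DESeq2 called 1 member lower and limma-voom 0, against 0.396% and 0.00683% of all genes. The median over the members was -0.07, against -0.0012 over all genes, and 66 of 83 were negative. Both libraries lay below all MGO.53 libraries for 32 members, against 9.83% of all genes. Rps27 was at -0.20 ± 0.061 and Rpl17 at -0.20 ± 0.062, with both libraries below MGO.53 (adjusted p = 0.218 and 0.231, edgeR). Rps3a1, a small subunit protein, had 871 and 890.3 CPM with Mel321-35, above the 835, 759, 839 and 837 CPM of MGO.53 (log2 fold change 0.11 ± 0.043, adjusted p = 0.362, edgeR). In the batch 2 library, left out of this fit, the members' median deviation from the MGO.53 mean was 0.08.

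Between the antibodies 0 members passed in any pair with edgeR, DESeq2 or limma-voom. For Mel321-31 against Mel322-34 the members' median log2 fold change was 0.07. An unadjusted p under 0.05 was found for 18 of 83 members and for 1019 of all 14633 genes. At the adjusted threshold 0% of all genes were called higher and 0.0205% lower. For Mel321-31 against Mel321-35 the median was -0.01. Here 3 of 83 members and 1179 of all 14633 genes had an unadjusted p under 0.05. At the adjusted threshold 0.0137% of all genes were called higher and 0.0888% lower. For Mel322-34 against Mel321-35 the median was -0.08, with 23 of 83 members and 1406 of all 14633 genes at an unadjusted p under 0.05. At the adjusted threshold 0.191% of all genes were called higher and 0.0683% lower. So the larger number of calls with Mel322-34 than with the other antibodies is not shown by these tests to be a difference between them. In the first of these pairs 79 of 83 members were positive and in the last 78 of 83 negative, with single values between -0.29 and 0.18.

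The members' deviation moved with a trend on transcript length that ran through whole libraries. Members are short, with a median annotated length of 843 bases, against 2737.5 bases for all tested genes. Across genes, the Spearman coefficient between length and the deviation from the MGO.53 mean was -0.14, 0.46, 0.37 and 0.45 in the Mel321-31 libraries and 0.45, 0.35, 0.53 and 0.33 in the Mel322-34 libraries. It was 0.17 and 0.03 in the batch 1 libraries of Mel321-35, -0.23 in the batch 2 library, and 0.16, -0.15, 0.05 and -0.05 in MGO.53 (10154 genes, which are not independent replicates). The 7 libraries with the highest coefficients were the 7 with the lowest member medians. Abundant members are among the genes of the coefficient, and both measures use the same MGO.53 mean, so they are not independent. The part of the length trend in the members' fall was not tested. With the length trend removed, Rpl19, Rpl28, Rpl37, Rps7 and Rpl41 were called lower with both Mel321-31 and Mel322-34. Rpl28 then had log2 fold changes of -0.18 ± 0.033 with Mel321-31 and -0.14 ± 0.033 with Mel322-34 (adjusted p = 0.00153 and 0.0199, edgeR). In that fit Rpl39 was called higher with both antibodies, and Rpl22l1 and Rps3a1 with Mel321-31, at 0.25 ± 0.051 and 0.14 ± 0.030 on the log2 scale (adjusted p = 0.00503 and 0.00824, edgeR).

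**Figure D5:**
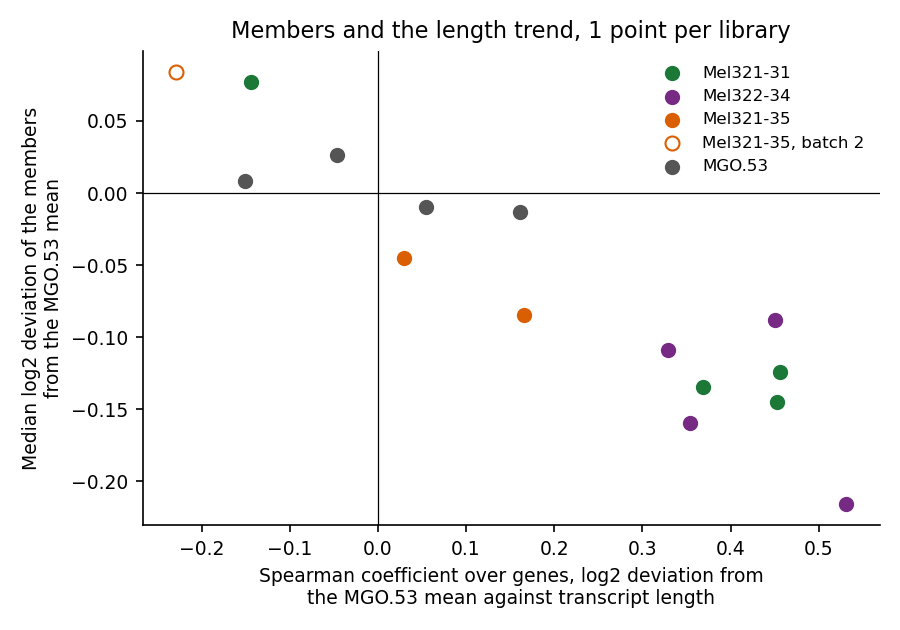
Median log2 deviation of the tested members from the MGO.53 mean in each library (vertical axis), against the Spearman coefficient over genes between that deviation and transcript length (horizontal axis). The 4 Mel322-34 libraries and Mel321-31 replicates 2 to 4 lie at the lower right, and Mel321-31 replicate 1 and the batch 2 library of Mel321-35 at the upper left.

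Genes that work with the ribosomal proteins were read from lists. Over all tested genes, 2.84% were called lower and 4.03% higher with Mel322-34. These shares were 2.13% and 1.41% with Mel321-31, and 0.00683% and 0.0342% with Mel321-35. Of the 3 ribosomal proteins with other names, Rack1, a scaffold on the small subunit, and Fau, a fusion that gives a small subunit protein, fell with Mel322-34, by 0.12 and 0.18 on the log2 scale (adjusted p = 0.0497 and 0.0467, edgeR), and 0 of 3 passed with Mel321-31 or Mel321-35. Of 23 translation factors and other messages with a TOP tract, 3 fell with Mel322-34 and 0 rose, with a median of -0.05. The elongation factor Eef1a1 fell by 0.14 (adjusted p = 0.00176), the initiation factor subunit Eif3f by 0.15 (adjusted p = 0.0176) and the poly(A)-binding protein Pabpc1 by 0.11 (adjusted p = 0.0287, edgeR). With Mel321-31 and with Mel321-35, 0 of the 23 passed, with medians of -0.01 and 0.01.

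Of 14 regulators of TOP messages, Eif4ebp1, the repressor of cap-dependent initiation that mTOR inactivates, fell with both Mel321-31 and Mel322-34. Its level was 82.4 ± 5.66 CPM in Mel321-31 cells and 79.9 ± 3.28 CPM in Mel322-34 cells, against 98.2 ± 5.04 CPM in MGO.53 cells (mean ± SD of 4 libraries each). Neither antibody's libraries overlapped those of the control, and the log2 values were -0.25 ± 0.049 and -0.30 ± 0.049 (adjusted p = 0.00432 and 0.00077, edgeR). The kinase Akt1 and the mTOR inhibitor Akt1s1 fell with Mel322-34 by 0.09 and 0.16 (adjusted p = 0.0424 and 0.0406, edgeR), and 0 of 14 rose. So 1 of 14 fell with Mel321-31 and 3 of 14 with Mel322-34, against 2.13% and 2.84% of all genes. With Mel321-35 0 of 14 passed. Mtor and Larp1 themselves were at 0.05 ± 0.047 and -0.03 ± 0.029 with Mel322-34. Of 14 chaperones and importers of ribosomal proteins, Ipo7 rose with Mel321-31 by 0.18 ± 0.039 (adjusted p = 0.00881) and Tnpo1 with Mel322-34 by 0.15 ± 0.041 (adjusted p = 0.0226, edgeR), and 0 fell with any antibody. Over all genes 1.41% and 4.03% were called higher, so 1 of 14 with each antibody is not read as a feature of the list.

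Members with a tract within 10 bases of the annotated start showed a median of -0.16 (log2 fold change, 37 tested members) with Mel322-34, against -0.14 for the 25 tested members without. With Mel321-31 the medians were -0.09 and -0.06, and with Mel321-35 they were -0.07 and -0.06. These differences are a description, with no test.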

How the data were processed

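The authors used STAR 2.7.10a, HTSeq 2.01 and DESeq2, per the submitters' processing notes. They deposited 2 kinds of value, raw counts of reads per gene and a normalised signal. In the deposited signal each count was divided by its library's size factor, and only the counts were tested here. The sources used here do not give the genome build, annotation, strand setting or the treatment of reads shared by genes. The table held 0 columns of per-sample values left unmapped, and 0 rows without a gene name.

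Counts of the 14 batch 1 libraries were fitted in 1 model over the 4 groups with edgeR 4.0.16 in R 4.3.3 (TMM scaling, default filter by group, quasi-likelihood F-test). Calls used Benjamini-Hochberg adjustment over 14633 genes and a threshold of 0.05. Residual degrees of freedom were 10 and the biological coefficient of variation 5.46%, and an SE is the absolute log2 fold change divided by the square root of F. The procedure was tested on counts simulated gene by gene from the fitted means and spread. The simulation had no length trend and no outlying library, so it does not test how the procedure handles either. Levels are TMM-scaled CPM, and levels per kb divide by the principal GENCODE M21 transcript. Start and promoter sequences are RefSeq's.

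The members and lists were chosen with earlier results of these data known. Named were, for each antibody, the 6 called members of smallest p in each direction (the 3 of smallest p where none was called), the 5 highest and 5 lowest levels per kb, the stalk proteins, Rpl5, Rpl11, Rps6, Rpsa, Rps3, Rps27a, the paralogue pairs, Fau, Rack1 and, from the lists, the called members. Rps14, Rps3a1, Rps29, Rpl41, Mtor, Larp1 and the names given for a count were chosen after their values were seen. Some genes the rule names are not reported here. Alternatives were DESeq2 1.42.0, limma-voom (limma 3.58.1), other scalings and filters, 15 libraries, a replicate block, removal of the length trend, fits of 2 groups, and each library left out.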

Additional observations from a re-analysis of the deposited data

Results flagged for a closer look

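Within groups of 4 libraries, the highest or lowest library was compared with the rest by Dixon's ratio at its 95% critical value. The 120 groups covered the named members, the members' share, their median and their ratio of small to large subunit counts. They also covered the mitochondrial share and the share of ribosomal protein pseudogenes. The test flagged 19, where chance flags about 1 in 20, and the genes of 1 library are not independent of each other. Mel321-31 replicate 1 was the highest library for 14 of them. Its share of counts in ribosomal protein genes was 4.94% and the members' median log2 deviation from the MGO.53 mean was 0.0773. For the large subunit genes it had 588.9 CPM of Rpl11, 933.1 CPM of Rpl19, 1018 CPM of Rpl3, 1282 CPM of Rpl32, 370.5 CPM of Rpl37, 480.7 CPM of Rpl5, 3.05 CPM of the copy Rpl6l, 1054 CPM of Rpl7 and 1686 CPM of Rpl8. It also had 1797 CPM of Rplp0, 1852 CPM of Rplp1 and 412.9 CPM of Rps6.

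Mel322-34 replicate 1 was the highest of its group for Rplp0 at 1653 CPM and for Rpsa at 1280.0 CPM. In MGO.53, replicate 3 was the lowest for Rpl19 at 910.0 CPM, and replicate 2 the highest for Rpl32l at 1.55 CPM and for Rplp1 at 1902 CPM.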

How the results depend on the processing

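The fall of members with Mel322-34 (43) and Mel321-31 (13) was within 1.5 times of these counts with DESeq2 (45 and 14), limma-voom (45 and 14), TMM without the ribosomal protein genes (43 and 13) and a stricter filter (45 and 13). In the same order of antibodies, 4.42% and 2.71% of all genes were called lower with DESeq2 and 2.69% and 1.89% with limma-voom. The shares were 2.88% and 2.13% with that TMM scaling and 4.54% and 2.35% with the stricter filter. Scaling to the summed ribosomal protein count moved the median of all genes by about 0.14 with Mel322-34 (to 0.1409). It left 2 lower and 3 higher with Mel322-34 (median -0.0054) and 0 lower and 1 higher with Mel321-31, where 0.246% and 0.991% of all genes were called lower. Under it the medians were -0.0018 for Mel321-35 and -0.0037 for Mel322-34 against Mel321-35, and with Mel322-34 against MGO.53 the values turned positive for Rplp0 (0.0014), Rps4x (0.042), Rack1 (0.0213), Eef1a1 (0.0048), Pabpc1 (0.0346) and Akt1 (0.0525); by construction it sets the members' sum equal.

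With the length trend removed, 10 fell and 1 rose with Mel322-34 (median -0.0486), and 8 fell and 3 rose with Mel321-31. In that fit 1.56% and 2.15% of all genes were called lower. Its medians were -0.0393 for Mel321-35 and -0.0226 for Mel322-34 against Mel321-35. With no filter on low counts 22 fell and 1 rose with Mel321-31, 4 fell with Mel321-35 and 1 was lower for Mel322-34 against Mel321-35. Of all genes 1.55%, 0.173% and 0.176% were then called lower. All 15 libraries without a batch term gave 4 lower with Mel321-31 and 27 with Mel322-34, against 0.26% and 1.95% of all genes. The medians were -0.0078 for Mel321-35 and -0.1371 for Mel322-34 against Mel321-35. For Mel321-35, DESeq2 gave 1 lower and the fit of 2 groups 4, against 0.396% and 0.176% of all genes. The cause of these moves was not tested.

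Leaving out 1 library gave 3 to 45 lower with Mel321-31 (0.685% to 3.93% of all genes), 16 to 57 with Mel322-34 (0.979% to 4.33%) and 0 to 1 with Mel321-35 (0% to 0.0754%), whose median ran from -0.0819 to -0.0471. Deviations from the group mean correlated over 0.1 in 4 of 18 same-number pairs of libraries, with r from -0.21 to 0.27. The median r was 0.025, against -0.0019 for pairs of other numbers. Whether replicate numbers pair the samples was not tested. With a replicate block 21 fell with Mel321-31 and 53 with Mel322-34, against 2.47% and 3.66% of all genes, and the Mel321-35 median was -0.0485. Among single genes, 6400 values kept direction and call, 323 moved, 131 lost the call, 91 gained it and 6 reversed. Mel321-35 rests on 2 libraries, and the depth of Rpl24 and Rps10 limits their values.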
